A study of Mus musculus with 8 samples.

Results

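The genes described here encode the proteins that bring retinol (vitamin A) to the stellate cell, store it as ester, and form or remove retinaldehyde, namely Lrat, Rbp4, Stra6, Rdh10, Dhrs3, Rdh11, Bco1, Retsat, Aldh1a1 and Aldh1a2. They were chosen by name from the retinoid pathway, with earlier results of these arrays known but by no threshold on their values, and all 10 were measured among the 19938 genes of a whole-transcript Affymetrix array. Each had exactly 1 probe set annotated to its symbol alone. Rdh11 is also named in the annotation of a probe set with several symbols, which was not used. Cells came from 2 groups of male Balb/c mice, with 4 arrays each. Reverted stellate cells were taken from mice given 4 injections of carbon tetrachloride (CCl4), a toxin that injures hepatocytes and brings on fibrosis. They received 0.5 µl per g in each injection, 2 times weekly, and were then left to recover for 45 days. Quiescent stellate cells were taken from normal mice without CCl4. The general statement in the labels gives an age of 18 weeks for all mice, while the statement on the reverted group gives 16 weeks. In both groups the cells were enriched by density centrifugation, sorted by the autofluorescence of their own retinoids and lysed at once. Cells that held too little retinoid to be sorted are therefore in neither group. Whether an array holds the cells of 1 mouse or of several is not stated, so p-values here reflect differences between preparations that could be technical.

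Hepatic stellate cells hold most of the body's vitamin A as retinyl ester in lipid droplets. Retinol travels in plasma bound to RBP4, and LRAT esterifies it for storage. To become a signal, retinol is oxidised to retinaldehyde and then, irreversibly, to retinoic acid, the ligand of nuclear receptors, while reductases return retinaldehyde to retinol and so to the store. Stellate cells that turn into myofibroblasts after injury are known to lose their droplets.

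The values are log2 intensities after RMA, which corrects background, normalizes arrays and summarises probes. A difference of 1 is a doubling of intensity. Levels of different genes were not compared as amounts of RNA, since probe sets differ in affinity. The level percentiles given below rank probe sets by brightness alone. Array medians lay between 8.08 and 8.14 over the genes tested. Along the leading principal component, which held 35.3% of the variance, the reverted arrays lay between 6.07 and 11.5 and quiescent arrays 1 to 3 between -14.0 and -8.79, with quiescent array 4 in between at -0.21. Values without quiescent array 4 are therefore given where a result rests on it. The 16 stellate markers averaged 13.10 to 13.14 in reverted arrays and 13.19 to 13.24 in quiescent arrays, without overlap. The mean of each of the 16, which include Lrat, was lower in reverted cells, while 46.4% of all genes had a higher mean there. Some of these changes were close to none, such as -0.0004 for Lrat and -0.0015 for Pdgfrb on the log2 scale. Gfap alone passed the test (log2 change -0.49, SE 0.07, limma adjusted p = 0.0182, and 0.0703 without reverted array 4). Of the 16, Gfap included, 3 had an unadjusted p under 0.05, beside 16% of all genes. The 15 measured hepatocyte markers averaged 8.65 to 9.15 in reverted arrays and 7.93 to 8.99 in quiescent arrays. The mean was higher in reverted cells for 15 of 15, with 0 past the test in limma. At an unadjusted p under 0.05 there were 8 of the 15, beside 16% of all genes. The 10 endothelial markers averaged 8.05 to 8.79 in reverted arrays and 7.78 to 8.40 in quiescent arrays. Again 10 of 10 were higher in the mean, with 0 past the test and 2 at an unadjusted p under 0.05, beside the same 16%. Fewer cells of a type and less RNA per cell cannot be told apart in such bulk samples.

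Between reverted and quiescent cells, no retinoid gene of the 10 passed the test, and all but Dhrs3 differed by less than 1.5-fold in the mean. In limma, with Benjamini-Hochberg adjustment over all genes, 0 of the 10 passed an adjusted p of 0.05 in either direction. Of all genes 0.712% did, with 105 (0.527%) higher and 37 (0.186%) lower in reverted cells. After quantile normalization that split was 128 higher and 91 lower, and again 0 of the 10 passed. At an unadjusted p under 0.05 there were 3 higher genes (Rbp4, Rdh11 and Bco1) and 1 lower gene (Stra6) among the 10, beside 16% of all genes. All 4 reverted arrays lay apart from all 4 quiescent arrays for Rbp4, Rdh11 and Stra6, which is 3 of 10, beside 8.73% of all genes. Rbp4 and Rdh11 were above, as were 4.64% of all genes, and Stra6 was below, as were 4.09%. Mean levels were higher in reverted cells for 8 of the 10, beside 46.4% of all genes. They were lower for 2, of which Lrat had a log2 change of only -0.0004. The median log2 change of the 10 was 0.12, against -0.01 over all genes and 0.03 over the brighter 50% of genes. The median size of change, whatever its sign, was 0.15 among the 10 and 0.06 over all genes. The median SD within groups was also larger among the 10, at 0.11 against 0.08 over all genes.

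**Figure D1:**
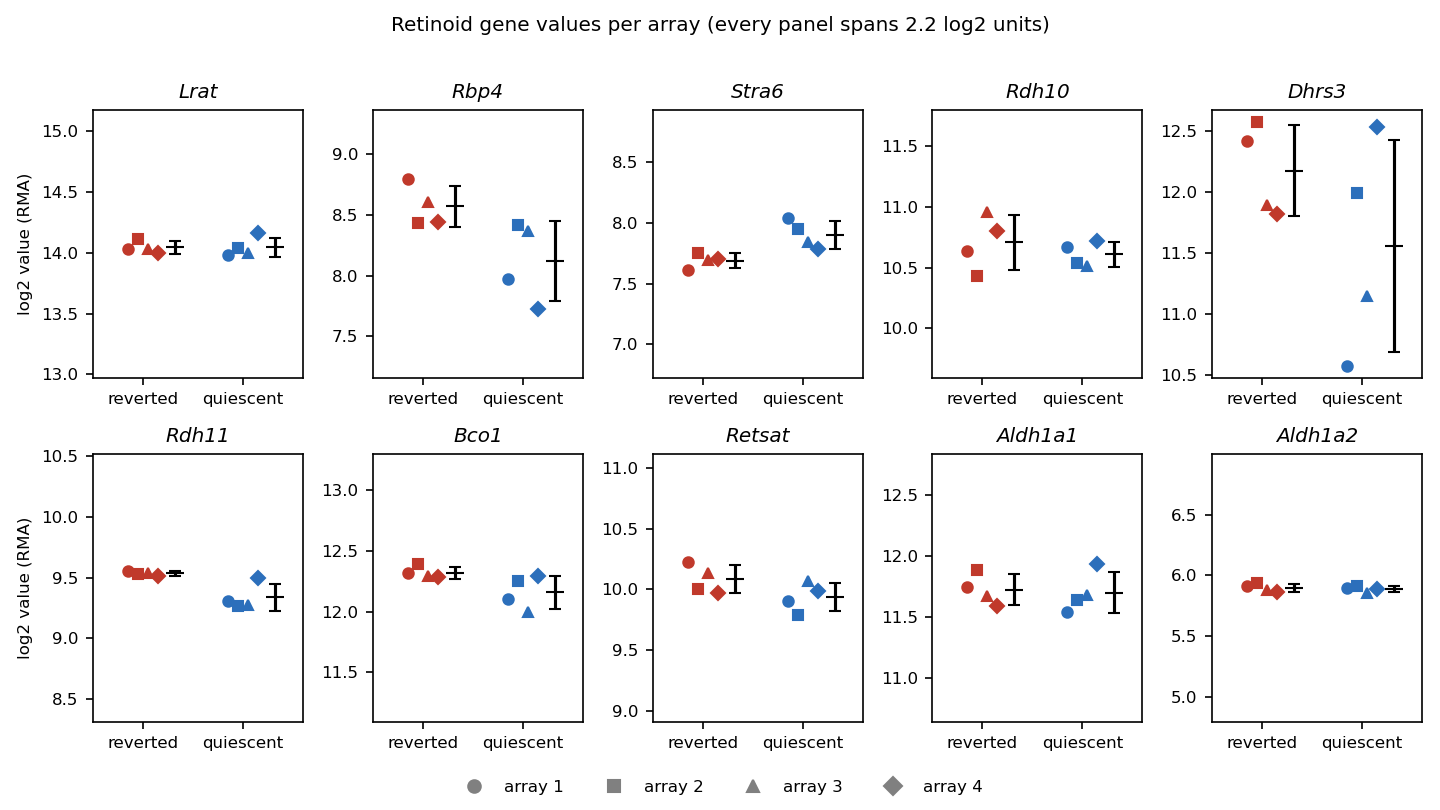
Log2 RMA values of the 10 genes in the reverted arrays (red, left) and quiescent arrays (blue, right), with 1 symbol per array and, in black, the mean and SD of each group (n = 4). Every panel spans the same height, so that the wide scatter of Dhrs3 and the narrow one of Aldh1a2 can be compared by eye.

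Lrat encodes lecithin retinol acyltransferase, the enzyme that makes the stored ester. Its log2 values were 14.03, 14.12, 14.03 and 14.00 in reverted arrays, against 13.99, 14.04, 14.00 and 14.16 in quiescent arrays. The groups overlapped throughout, and the highest and lowest of the 8 values were both quiescent. The log2 change was 0.00 (SE 0.05, limma adjusted p = 0.997), with a 95% interval of -0.11 to 0.11, that is, 0.93-fold to 1.08-fold. This probe set is at level percentile 99.9 of all genes, near the upper end of the scale, where differences in amount may be compressed.

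The base sequence just before the start site of Lrat is shown with those of Bco1 and Rdh11, since these are the store's own enzyme, the gene with the one direct repeat found, and the gene with the smallest p among the 10. Windows of 250 bases before and 50 bases after RefSeq start sites (build GRCm38.p6) were found for 9 of the 10 genes, as 17 windows in all. The core sequence of retinoid and related nuclear receptor sites was searched as AGGTCA together with the variant AGTTCA, the variant GGGTCA and the variant GGTTCA on both strands. It was searched singly and as direct repeats with spacers of 1, 2 or 5 bases, whose parts also count as single matches. At least 1 core was found in 7 of the 17 windows, against 43.7% of all 32851 windows. A direct repeat with a spacer of 1 base was found in the Bco1 window alone, against 0.222% of all windows. Repeats with a spacer of 2 or 5 bases were found in 0 of the 17 windows, against 0.268% and 0.0974% of all windows. These are matches of letters and show no binding. The 250 bases before each start site follow, 5′ to 3′ on the gene's own strand, with the cores in capitals. The Bco1 stretch is chr8:117095615-117095864 (plus strand), that of Rdh11 chr12:79191856-79192105 (minus strand) and that of Lrat chr3:82903975-82904224 (minus strand).
Bco1: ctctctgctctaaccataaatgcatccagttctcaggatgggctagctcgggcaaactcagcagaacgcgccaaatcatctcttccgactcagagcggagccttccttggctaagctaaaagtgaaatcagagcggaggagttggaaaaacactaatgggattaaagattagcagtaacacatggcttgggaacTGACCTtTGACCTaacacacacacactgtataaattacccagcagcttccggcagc
Rdh11: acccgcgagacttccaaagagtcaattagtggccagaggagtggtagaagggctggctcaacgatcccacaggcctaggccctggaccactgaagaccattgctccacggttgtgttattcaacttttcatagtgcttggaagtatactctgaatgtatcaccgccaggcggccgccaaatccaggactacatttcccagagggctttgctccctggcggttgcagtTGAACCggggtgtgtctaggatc
Lrat: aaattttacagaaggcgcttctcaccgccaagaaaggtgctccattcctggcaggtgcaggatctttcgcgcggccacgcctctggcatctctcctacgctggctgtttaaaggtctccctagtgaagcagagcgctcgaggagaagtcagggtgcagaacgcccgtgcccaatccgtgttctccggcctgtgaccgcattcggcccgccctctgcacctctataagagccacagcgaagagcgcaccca
In Bco1 the cores read on the minus strand and span positions 56 to 44 before the start site. Rdh11 has 2 listed start sites, and the stretch printed belongs to the more upstream one, where the single core, also on the minus strand, lies 23 to 18 bases before the start. The window of its other start site, not printed, holds 1 core on the plus strand, 147 to 142 bases before that start. The Lrat stretch holds 0 cores.

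Of the transport genes, Rbp4 encodes the plasma carrier of retinol, which hepatocytes secrete in quantity. It stood at 8.79, 8.44, 8.60 and 8.44 in reverted arrays, against 7.97, 8.42, 8.37 and 7.73 in quiescent arrays. Each reverted value exceeded each quiescent value, although by as little as 0.02 between the nearest arrays. Means were 8.57 ± 0.17 in reverted and 8.12 ± 0.33 in quiescent cells (SD, n = 4 each), a log2 change of 0.45 (SE 0.15, limma adjusted p = 0.215) with a 95% interval of 0.11 to 0.79.

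Since hepatocytes make RBP4, the mean of the hepatocyte markers is set beside it. That mean was 9.15, 8.65, 8.85 and 8.98 in reverted arrays, against 8.23, 8.99, 8.51 and 7.93 in quiescent arrays. Quiescent arrays 1 and 4 were the lowest of the 8 both for these markers and for Rbp4. Quiescent array 2 differed, as its marker mean, 8.99, was above those of reverted arrays 2, 3 and 4, while its Rbp4 value was below every reverted array. With this mean as a covariate the log2 change of Rbp4 was 0.12 (SE 0.10, limma adjusted p = 0.511), and without quiescent array 4 it was 0.32 (adjusted p = 0.186). Ttr, the transthyretin that carries RBP4 in plasma and itself one of the hepatocyte markers, had a log2 change of 0.34 (SE 0.20, limma adjusted p = 0.415).

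**Figure D2:**
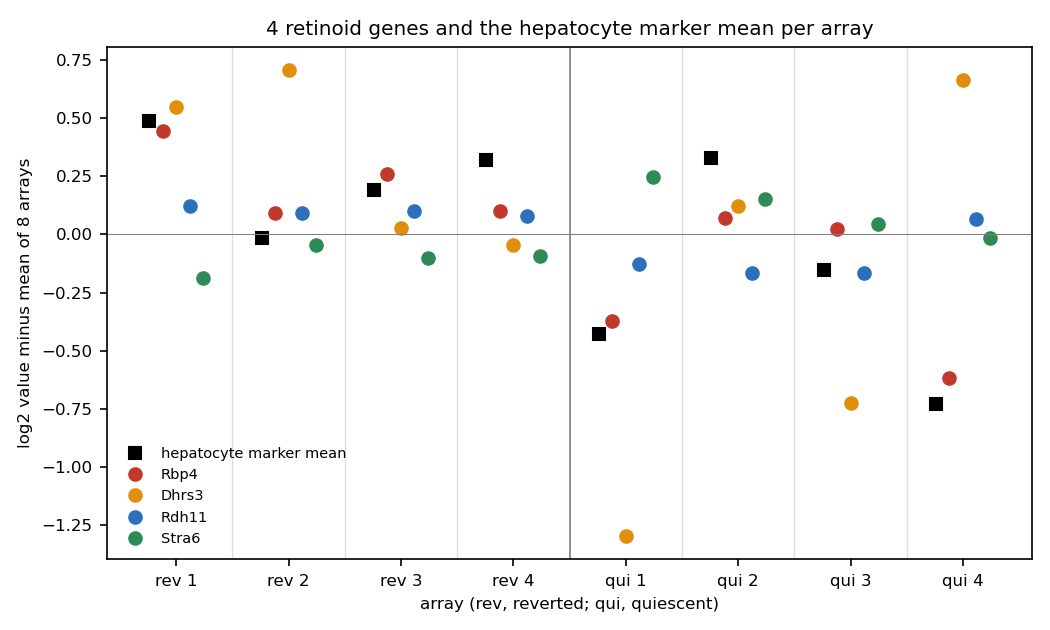
Log2 values of Rbp4, Dhrs3, Rdh11 and Stra6 and of the mean of 15 hepatocyte markers (black squares), each minus its own mean over the 8 arrays, by array, with the reverted arrays left of the dividing line and the quiescent arrays right of it. Rbp4 and the hepatocyte markers are both lowest in quiescent arrays 1 and 4, while Dhrs3 is low in quiescent arrays 1 and 3 and high in quiescent array 4. In quiescent array 2 the hepatocyte markers are above reverted arrays 2, 3 and 4, and Rbp4 is below every reverted array.

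Stra6 encodes a membrane receptor that moves retinol from RBP4 into cells. It was the one transport gene of the 10 with a lower mean in reverted cells, at 7.61, 7.75, 7.69 and 7.70 in reverted arrays, against 8.04, 7.95, 7.84 and 7.78 in quiescent arrays. The groups did not overlap, with a gap of 0.03 between reverted array 2 and quiescent array 4. The log2 change was -0.21 (SE 0.06, limma adjusted p = 0.158), with a 95% interval of -0.35 to -0.08. It was -0.23 with the hepatocyte mean as a covariate and -0.25 without quiescent array 4 (adjusted p = 0.177 and 0.0752).

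Rdh10 encodes the retinol dehydrogenase that oxidises retinol to retinaldehyde. Its values were 10.64, 10.43, 10.96 and 10.80 in reverted arrays, against 10.67, 10.54, 10.51 and 10.72 in quiescent arrays. Reverted arrays held both the lowest and the highest of the 8 values, so the groups overlapped. Its log2 change was 0.10 (SE 0.10, limma adjusted p = 0.654), with a 95% interval of -0.14 to 0.33. Leaving out reverted array 3 gave 0.015 (adjusted p = 0.955), and leaving out reverted array 2 gave 0.19 (adjusted p = 0.372).

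Dhrs3 encodes the reductase that works against RDH10 and returns retinaldehyde to retinol, and it is known as a gene that retinoic acid induces. Its values were 12.42, 12.57, 11.89 and 11.82 in reverted arrays, against 10.57, 11.99, 11.14 and 12.53 in quiescent arrays. Quiescent cells thus spanned a 3.89-fold range, which took in 3 of the 4 reverted values, while the reverted arrays spanned a 1.68-fold range. Dhrs3 had the largest mean change of the 10, at 1.53-fold (log2 change 0.62, SE 0.38, limma adjusted p = 0.444), and the widest 95% interval, at 0.84-fold to 2.79-fold. It alone of the 10 reached a 1.5-fold difference, beside 0.607% of all genes. Only 11 of all genes had a larger SD within groups than its 0.67. Without quiescent array 4 the log2 change was 0.94 (adjusted p = 0.148), and without quiescent array 1 it was 0.29 (adjusted p = 0.749), so that the value rests on single quiescent arrays.

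The genes whose values followed those of Dhrs3 most closely over the 8 arrays were Ddit4, Bcl2l1 and Zfp791. After each gene was centred on its own mean, they differed from Dhrs3 by a root mean square of 0.26, 0.32 and 0.32 log2 units, where Dhrs3 itself varied by 0.66. Like Dhrs3, each was lower in quiescent arrays 1 and 3 than in quiescent arrays 2 and 4. Ddit4, a gene induced by stress, had 11.30, 11.70, 10.98 and 10.94 in reverted arrays, against 10.36, 11.03, 10.33 and 11.46 in quiescent arrays. The limma adjusted p of the 3 genes was 0.433, 0.294 and 0.291, with log2 changes of 0.44, 0.63 and 0.56. These genes were picked for their likeness on the same arrays.

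**Figure D3:**
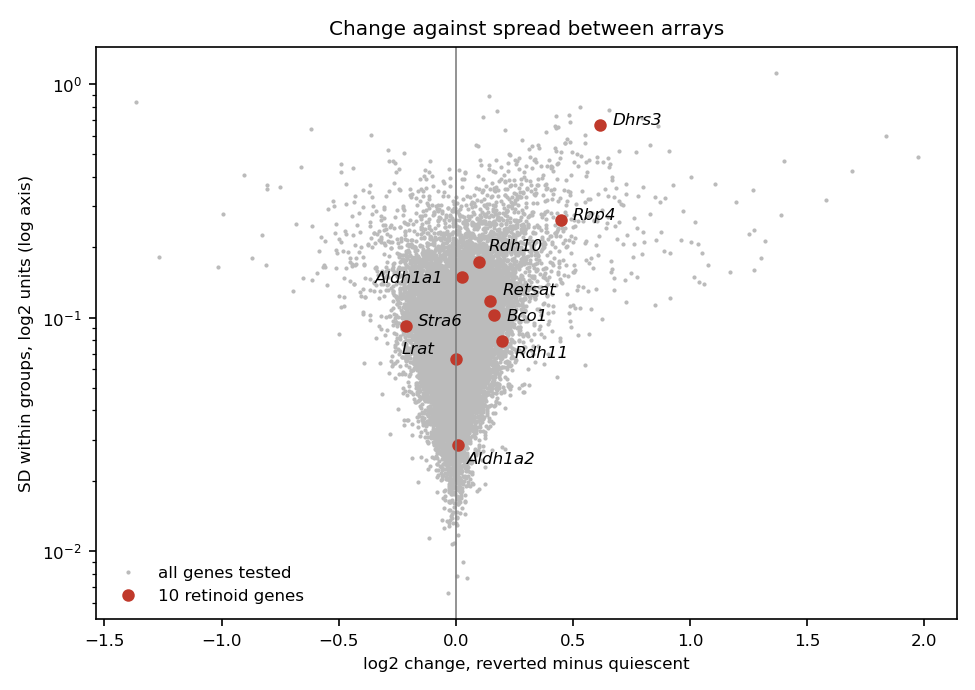
Log2 change (reverted minus quiescent, x axis) against the SD within groups in log2 units (y axis, log scale) for all 19938 genes (grey) and the 10 retinoid genes (red). Dhrs3 sits near the top of the spread at a change of 0.62, and Aldh1a2 near its lower end at 0.01.

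Rdh11, a further retinaldehyde reductase, which is also found in hepatocytes, had the smallest p of the 10. It stood at 9.56, 9.53, 9.54 and 9.51 in reverted arrays, against 9.31, 9.27, 9.27 and 9.50 in quiescent arrays. The reverted arrays lay within 0.05 of each other and above every quiescent array, yet the gap to quiescent array 4 was 0.01. Means were 9.53 ± 0.02 in reverted and 9.34 ± 0.11 in quiescent cells (SD, n = 4 each), or 1.15-fold (log2 change 0.20, SE 0.06, limma adjusted p = 0.153), with a 95% interval of 0.07 to 0.32. Without quiescent array 4 the log2 change was 0.25 (SE 0.04) and its adjusted p was 0.0273, past the threshold, in a fit that called 1.24% of all genes. With the hepatocyte mean as a covariate it was 0.27 (adjusted p = 0.0974), and the adjusted p of Rdh11 reached 0.335 without reverted array 3.

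Bco1 encodes the oxygenase that cleaves beta-carotene into retinaldehyde, a source that does not draw on stored ester. Its values were 12.32, 12.39, 12.29 and 12.29 in reverted arrays, against 12.10, 12.25, 11.99 and 12.29 in quiescent arrays. All 4 reverted values exceeded the quiescent mean, but quiescent array 4 reached the level of reverted arrays 3 and 4. The log2 change was 0.16 (SE 0.07, limma adjusted p = 0.285), with a 95% interval of 0.01 to 0.31, and without quiescent array 4 it was 0.21 (adjusted p = 0.127). Without quiescent array 3 it was 0.11 (adjusted p = 0.390). Its promoter stretch holds the direct repeat printed in capitals, a form that dimers of PPAR and RXR receptors are known to bind.

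Retsat encodes retinol saturase, which converts retinol to a dihydroretinol and is abundant in hepatocytes and adipocytes. It stood at 10.23, 10.003, 10.13 and 9.97 in reverted arrays, against 9.91, 9.79, 10.07 and 9.98 in quiescent arrays. All reverted values lay above the quiescent mean, and 2 of the 4 lay above every quiescent array. Retsat differed by 0.15 on the log2 scale (SE 0.07, limma adjusted p = 0.357), with a 95% interval of -0.02 to 0.31. After quantile normalization it was 0.089.

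The last step, from retinaldehyde to retinoic acid, is carried out by the ALDH1A dehydrogenases. Aldh1a1 stood at 11.74, 11.89, 11.67 and 11.59 in reverted arrays, against 11.54, 11.64, 11.68 and 11.93 in quiescent arrays. The quiescent range enclosed every reverted value, but only through quiescent array 4. The other quiescent arrays reached 11.68, below reverted arrays 1 and 2. Aldh1a1 differed by a log2 change of 0.03 (SE 0.09, limma adjusted p = 0.903), with a 95% interval of -0.18 to 0.23. The change was 0.105 without quiescent array 4, and -0.03 without quiescent array 1 or without reverted array 2.

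Aldh1a2, which makes retinoic acid in the embryo and in mesothelium, stood at 5.91, 5.93, 5.88 and 5.86 in reverted arrays, against 5.90, 5.91, 5.85 and 5.88 in quiescent arrays. All 8 values lay within 0.08 of each other. The level percentile of its probe set was 12.2, at the dim end of the array, where a change may be understated, and signal over background was not used here. The log2 change was 0.01 (SE 0.04, limma adjusted p = 0.903), with a 95% interval of -0.07 to 0.09. On the same arrays Wt1, a transcription factor of mesothelium, had a log2 change of 1.39 (SE 0.16, limma adjusted p = 0.00801). Of the other 6 mesothelial markers, 0 passed the test or had an unadjusted p under 0.05, with 1 higher mean and 5 lower means in reverted cells. The mean of all 7 was 7.11 to 7.29 in reverted and 6.96 to 7.09 in quiescent arrays, and without Wt1 it was 6.72 to 6.84 in reverted and 6.73 to 6.89 in quiescent arrays. The Wt1 call was lost with the hepatocyte mean as a covariate (adjusted p = 0.0585).

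**Figure D4:**
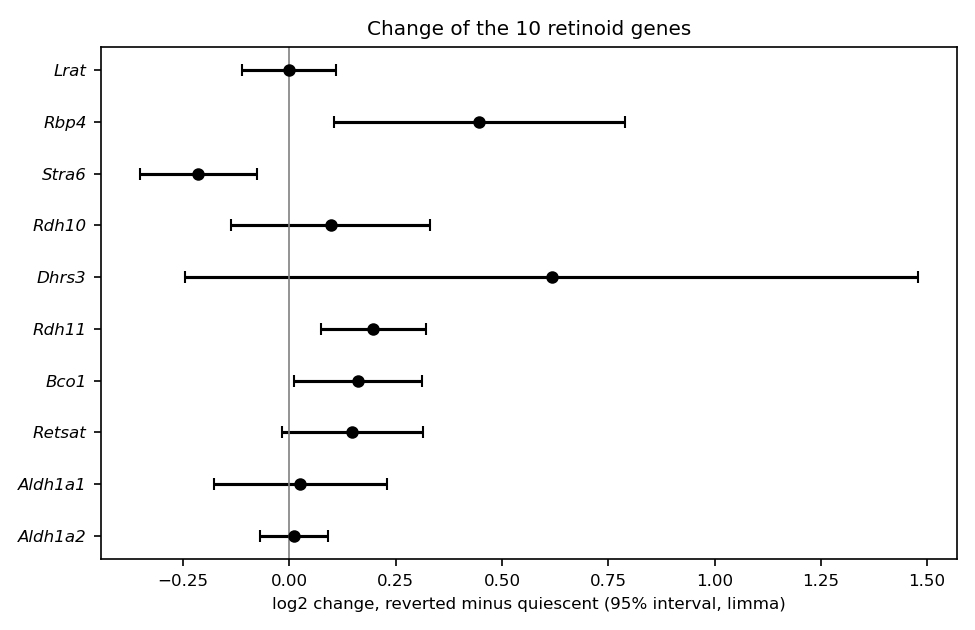
Log2 change (reverted minus quiescent) of each of the 10 genes with its 95% interval from the limma fit (n = 4 arrays per group). The intervals of Rbp4, Stra6, Rdh11 and Bco1 leave out 0 before adjustment for the number of genes, that of Dhrs3 is the widest, and those of Lrat and Aldh1a2 are narrow and centred near 0.

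The remaining genes of retinoid handling were read from the same fit. Of 54 listed, 52 were measured, and in limma 0 rose and 0 fell at an adjusted p of 0.05. At an unadjusted p under 0.05 there were 7 (2 higher and 5 lower), or 13.5%, beside 16% of all genes. The median log2 change of the 52 was 0.00, against -0.01 over all genes, with 25 higher and 27 lower means. Scarb1, the receptor for high-density lipoprotein that also takes up carotenoids, came closest. It stood at 10.64, 10.55, 10.69 and 10.55 in reverted arrays, against 10.78, 10.87, 10.91 and 10.90 in quiescent arrays. The groups did not overlap, and the log2 change was -0.26 (SE 0.05, limma adjusted p = 0.0516). Scarb1 passed, at an adjusted p of 0.0166 to 0.0456, under 4 of the alternatives, which were quantile normalization, median centring, removal of the dimmer 50% of genes, and a variance trend with intensity set together with robust variance. Among 8 genes of transport, uptake and binding, the intracellular carrier Rbp2 came next (-0.15, adjusted p = 0.265).

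Among 11 genes that form or hydrolyse retinyl ester, lipoprotein lipase, Lpl, had a log2 change of 0.23 (SE 0.07, limma adjusted p = 0.166), and the carboxylesterase Ces1g one of 0.18 (adjusted p = 0.269). Of the 15 other dehydrogenases and reductases, 0 had an unadjusted p under 0.05. The smallest p values there were those of the reductase Dhrs4 (0.11, adjusted p = 0.358) and of the alcohol dehydrogenase Adh1 (0.43, adjusted p = 0.433). Adh1 is abundant in hepatocytes, but which cells its signal came from was not tested. With the hepatocyte mean as a covariate the log2 change of Adh1 was -0.12 (SE 0.18, limma adjusted p = 0.717). The 5 other retinaldehyde oxidising genes included the aldehyde oxidases Aox1 (-0.14, adjusted p = 0.297) and Aox3 (0.20, adjusted p = 0.328). With that covariate Aox3 was at 0.00, while Rbp2 was at -0.26 (adjusted p = 0.0906). Both probe sets were toward the dim end of the array, at level percentiles 25.2 (Aox3) and 20.7 (Rbp2). The carotenoid genes Bco2, another carotene oxygenase, and Isx, an intestinal repressor of Bco1 and Scarb1, were at 0.01 and -0.07 (adjusted p = 0.924 and 0.547).

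Of 11 genes for retinoic acid binding, receptors and catabolism, 3 were higher and 8 lower in the mean of reverted cells. The retinoic acid hydroxylase Cyp26c1 had a log2 change of -0.17 (SE 0.07, limma adjusted p = 0.294) and the receptor gene Rara one of -0.13 (SE 0.06, adjusted p = 0.304). With the hepatocyte mean as a covariate Cyp26c1 was at -0.29 (adjusted p = 0.1002). The arrays of both genes overlapped between the groups. With each of the 8 arrays left out in turn, 0 of these 52 genes passed in any fit.

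**Figure D5:**
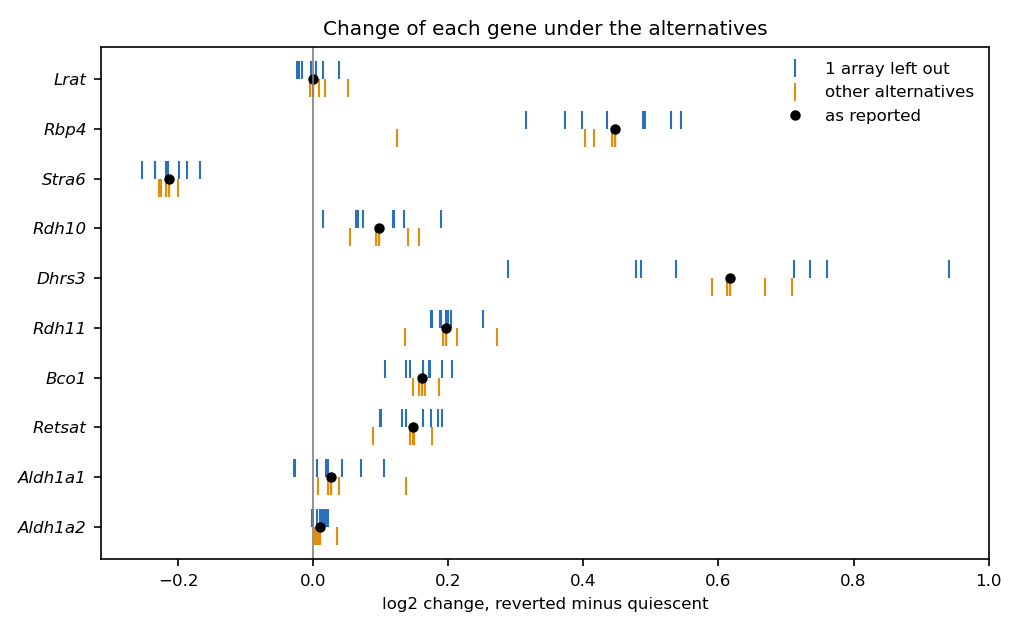
Log2 change (reverted minus quiescent) of each of the 10 genes as reported (black), with 1 array left out (blue) and under the other alternatives (orange). The 8 fits without an array move Dhrs3 between 0.29 and 0.94, and the point of Rbp4 at 0.12 is the fit with the hepatocyte marker mean.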

How the data were processed

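RNA of 8 sorted stellate cell preparations, 150 ng each, was amplified, biotin-labelled and hybridised, per the labels' protocols. The authors deposited log2 values made with RMA, per the submitters' processing notes. For its version and settings, the genome build and scan dates, the entry is not given in the sources used here. In all, the table held 35556 probe sets, of which 21789 carry 1 gene symbol in the platform annotation, 1621 carry several and were not used, and 12146 were unnamed here. Each of the 999 genes with several probe sets was represented by the brightest in the mean of the 8 arrays.

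Groups were compared over 19938 genes with lmFit and eBayes of limma 3.58.1 (R 4.3.3), 2-sided, without covariates or a filter on dim genes. An adjusted p under 0.05 was called. Intervals are 95% intervals of that fit, not adjusted for the number of genes. Tables and plots used Python 3.11.15, pandas 2.3.3 and matplotlib 3.10.9. The fit was tested on simulated data. Named besides the 10 genes were pathway genes that were called or had the 2 smallest p of their role, marker genes as a check and those called, and the 3 genes most like the member with the largest change. The number of arrays limits the precision. Members, lists and tests were chosen with earlier results of these data known. Listed pathway genes without a probe set of a single symbol were not analysed here.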

Additional observations from a re-analysis of the deposited data

Results flagged for a closer look

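A value far from the others of its group was found in 3 of 60 sets of 4 arrays (30 genes), where chance gives about 5%. Rdh11 was at 9.50 in quiescent array 4, with the other quiescent arrays between 9.27 and 9.31. Isx was at 6.31 in reverted array 2, with the other reverted arrays between 6.42 and 6.43. Wt1 was at 10.07 in reverted array 1, with the other reverted arrays between 9.36 and 9.46.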

How the results depend on the processing

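Of 177 refits of the 10 genes, 1 passed the threshold, that of Rdh11 without quiescent array 4, and 7 of the genes kept their sign in all. The count of the 10 genes changed ran from 0 to 1 with each array left out, and was 0 under all other alternatives. The other retinoid pathway count was 1 (Scarb1) after quantile normalization, after median centring, after removal of the dimmer 50% of genes or with a variance trend and robust variance together, and 0 with arrays left out. Log2 changes of Lrat turned to 0.018 (quantile normalization), 0.0082 (array weights) and 0.051 (hepatocyte covariate). With arrays left out Lrat ranged between -0.025 and 0.038, Aldh1a1 between -0.028 and 0.105, Aldh1a2 between -0.0023 and 0.022, Bco2 between -0.017 and 0.041 and Des between -0.033 and 0.018. The hepatocyte covariate turned Adh1 (-0.12), Des (0.047) and Alb (-0.18). Alb is itself among the markers in that mean, so its value cannot be read apart from the covariate. The count over all genes, 142, was 219 after quantile normalization, 306 with array weights, 49 with the hepatocyte covariate, 63 with the replicate block, and 54 to 247 with arrays left out. Whether the replicate numbers of the titles pair samples of the 2 groups is not known here. Deviations of same-numbered arrays correlated between -0.15 and 0.08, and 0 reverted arrays correlated best with the quiescent array of their own number. These correlations cannot decide it, since a pairing is a matter of how the samples were made. With the block, 0 of the 10 genes passed. The causes were not tested.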

Other observations

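Markers of other cells gave these values, as means over each list. The 10 Kupffer cell and macrophage markers were at 6.96 ± 0.05 in reverted and 6.95 ± 0.07 in quiescent arrays (SD, n = 4 each), and the 6 cholangiocyte markers at 6.45 to 6.52 in reverted and 6.46 to 6.60 in quiescent arrays. The 8 portal fibroblast markers were at 8.29 to 8.55 in reverted and 8.17 to 8.22 in quiescent arrays, with 3 means higher and 5 lower in reverted cells. Without Dpt the mean was 7.98 to 8.17 in reverted and 8.002 to 8.13 in quiescent arrays. At an unadjusted p under 0.05 there were 4 of the 8, beside 16% of all genes. Of these Cd34 (log2 change 0.60) was higher, and Gli1 (-0.16) and Eln (-0.34) were lower, named after their values were seen. The other was Dpt, which alone passed (log2 change 1.69, limma adjusted p = 0.0174, with 0.0514 and 0.0703 without reverted arrays 3 and 4, and 0.0888 with the hepatocyte mean as a covariate). The 6 measured lymphocyte markers were at 6.72 to 6.86 in reverted and 6.68 to 6.86 in quiescent arrays. The 8 immediate early genes, which tissue dissociation induces, were at 13.33 to 13.40 in reverted and 13.24 to 13.41 in quiescent arrays. Their median level percentile was 99.6, near the upper end of the scale, where differences in amount may be compressed. In the Kupffer cell, cholangiocyte, lymphocyte and immediate early lists, 0 genes passed in limma, and 0 had an unadjusted p under 0.05.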
